A study of Homo sapiens with 27 samples.

Results

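Total RNA was compared between SHP77 cells carrying either of 2 shRNAs against circRMST and SHP77 cells carrying an shRNA against GFP, which the labels call the negative control. SHP77 is a human line of small cell lung cancer, a neuroendocrine tumour. circRMST is a closed RNA circle made by back-splicing from RMST, a long non-coding RNA gene, and the comparison asks which genes depend on it. Cells of all 3 groups were infected with lentivirus, kept under puromycin selection (3 µg/ml) for 3 days or longer, and sequenced from 1 µg of RNA, per the labels. Each group held 2 libraries, so that 6 of the 27 samples of the series entered the comparison. The deposited values were normalized counts, that is, reads per gene after scaling for library size. Of 41686 human genes listed, 13722 (32.9%) averaged 50 normalized counts or more in the 6 libraries, and these are called measured genes below. They included 11702 protein-coding genes. The series calls the replicates biological and does not say whether they were separate cultures, so p-values measure only the spread between these libraries. For every gene named below as having risen or fallen, all 4 knockdown libraries lay beyond both shGFP libraries, except MT-ND1, MT-TI and STC1, whose groups overlapped.

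Small cell lung cancer cells express neuroendocrine genes, such as those for secreted peptides and their storage granules, under lineage transcription factors such as INSM1. Cells under shortage of amino acids or with unfolded protein in the endoplasmic reticulum (ER) reduce translation and raise the transcription factor ATF4, whose targets make and import amino acids and charge tRNAs. The related unfolded protein response raises ER chaperones through a promoter element called ERSE. Such programs involve many genes at once, and the measured genes are therefore described below by family.

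The libraries held 46.9 to 57.4 M reads, and 40.5 to 45.4% of them came from MT-RNR2, a ribosomal RNA of mitochondria. The neuroendocrine markers INSM1, CHGA, SYP, NCAM1, DLL3 and GRP were measured in every library. The subtype markers NEUROD1, POU2F3 and YAP1 were near background: NEUROD1 had 30 reads in the control pair and 2 in the knockdown libraries, POU2F3 had 36 and 0, and YAP1 had 50 and 0. The shGFP libraries stood apart in low-level reads, with a read in 35740 and 36964 genes against 26593 to 27144 in the knockdown libraries. No siRNA library of the series had a read in 1548 protein-coding genes, of which 82.4% and 85.6% had one in shGFP and 14.7 to 20.5% in knockdown cells. The siRNA libraries, made from poly(A) RNA, held 15.5 to 50.1 M reads and were normalized on their own, so their values are not on the same scale. RN7SL genes, which encode the RNA of the signal recognition particle and its copies, took 0.180 and 0.186% of shGFP reads against 0.379 to 0.467% of knockdown reads. The part of these library differences in the results was not tested.

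Averaged over the shRNAs with equal weight, 4995 of 13722 measured genes rose (36.4%), 3494 fell (25.5%) and 5233 did not pass the test. Changes are differences in log2 of the normalized count plus 1, tested with limma at an adjusted p under 0.05 over 19068 genes with a mean of at least 10. Over all of these tested genes 27.8% rose and 25.9% fell. Most changes were small: 570 measured genes (4.15%) rose and 691 (5.04%) fell at least 2-fold, and 56 and 131 did so at least 4-fold. All 4 knockdown libraries lay above both shGFP libraries for 36.3% of measured genes and below both for 25.5%. With shRNA 1 alone 35.3% rose and 24.2% fell, and with shRNA 2 alone 32.4% rose and 22.9% fell. The median SE of a log2 change was 0.087. The median change was 0.080 over measured genes and 0.0015 over tested genes.

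The balance of small rises and falls depended on how libraries were scaled to each other. With equal library totals 3410 measured genes were higher and 4872 lower, and the median over tested genes moved to -0.14. With equal totals computed without mitochondrial and 7SL genes the counts were 4300 and 3978, with quantile normalization 4443 and 3908, and with a median ratio over genes with a mean of at least 300 they were 3858 and 4411. Gene families are therefore read against the medians above and the shares over all measured genes, 36.4% rises and 25.5% falls. Rises outnumbered falls among all measured genes, so a list with more rises than falls does not stand apart by that alone. Where a list's balance of rises and falls or median sign turned under any of these 4 scalings, this is said beside it. Among 83 gene lists this was so for 28. For 52 lists an alternative moved the count of rises or of falls by more than 1.5 times. For these the lowest and highest counts over all alternatives are given as ranges, rises first, with each library whose absence moved a count that far. Of the falls, 80 lay within the 99th percentile of the shGFP excess of the 1548 genes above (38.7 normalized counts). They were set aside as possible background, and 1 of them was at least 2-fold. A 2-fold fall of a measured gene has an excess near this limit or above, so the limit could hardly set one aside. The largest excess among the 1548 genes was 271, and the part of background in falls with a larger excess than the limit was not tested. A further description of low genes is that 65 of the falls and 80 of the rises had a mean under 10 in the siRNA libraries, 25 and 20 of them at least 2-fold.

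**Figure D1:**
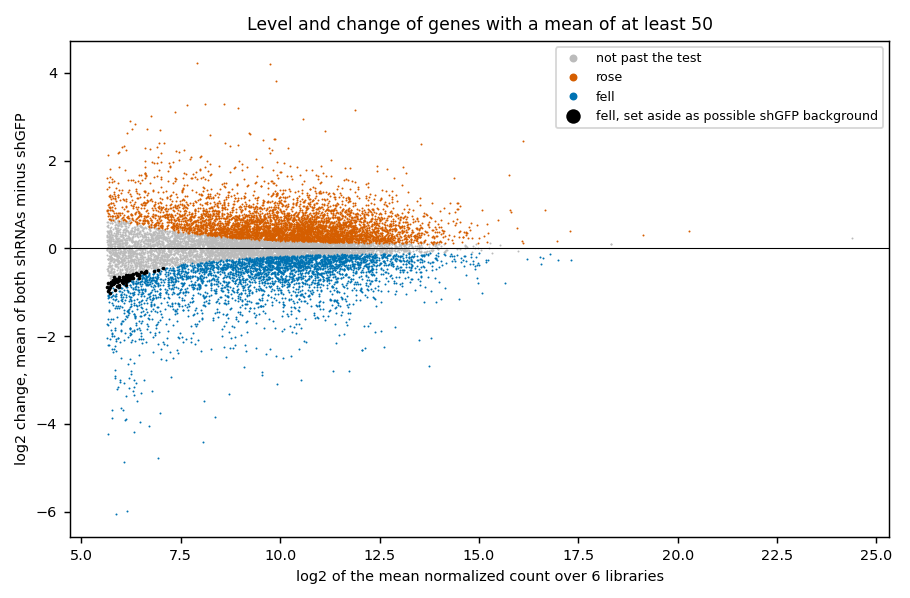
Each dot is a gene with a mean of at least 50, placed by log2 of its mean normalized count over 6 libraries and by its log2 change in circRMST knockdown. The falls that were set aside, in black, sit at the low end of the level axis, and the largest changes in both directions were those of genes at low and middle levels.

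RMST itself (ENSG00000255794.6, chromosome 12, 97462804 to 97565035, GRCh38.p14) held 275 and 304 in shGFP, 289 and 262 with shRNA 1 and 234 and 285 with shRNA 2. The groups overlapped and the gene did not pass (log2 change -0.12, SE 0.13, adjusted p = 0.478), but its entry counts reads of the whole gene, and the circle was not measured by it. The transcription factor gene SOX2 was slightly higher (1997 and 2229 in shGFP, 2236 and 2408 with shRNA 1 and 2639 and 2723 with shRNA 2), with log2 change 0.24, SE 0.06, adjusted p = 0.00238. Its call was lost without shGFP replicate 1 (0.16, adjusted p = 0.096), without a variance trend, and under the scaling to equal totals (0.10, adjusted p = 0.209) or to the median ratio of genes with a mean of at least 300. NKX2-1 encodes a lung lineage transcription factor and held 1419 and 1485 in shGFP, 881 and 1005 with shRNA 1 and 1385 and 1166 with shRNA 2. It fell on average (log2 change -0.41, SE 0.08, adjusted p = 0.000166), and the libraries of shRNA 2 alone did not pass. SFTA3 and NKX2-1-AS1 overlap NKX2-1, SOX2-OT overlaps SOX2, and reads of overlapping genes are uncertain here because the sources do not say whether counting used strand.

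The 10 largest rises with both shRNAs included those of growth factor, matrix, membrane and enzyme genes. BEST1, a chloride channel gene (ENSG00000167995.15, chromosome 11, 61949821 to 61965515), held 70.9 and 62.6 in shGFP, 1294 and 1354 with shRNA 1 and 1182 and 1144 with shRNA 2, a rise of 18.3-fold (log2 change 4.20, SE 0.10, adjusted p = 1.77e-19). Its annotated range shares 1231 bases with FTH1, which rose too, so that part of the BEST1 reads may not be its own. PAPPA, a protease that frees insulin-like growth factors from their binding proteins, held 87.3 and 104 in shGFP, 1682 and 1523 with shRNA 1 and 1143 and 1139 with shRNA 2 (log2 change 3.81). ANXA1, a phospholipid-binding protein gene, held 14.4 and 12.3 in shGFP, 589.7 and 600.5 with shRNA 1 and 129.6 and 107 with shRNA 2. It rose with both shRNAs, to different levels (difference 2.32, SE 0.24, adjusted p = 1.44e-07 in limma). FGF1, a growth factor gene, also reached higher levels with shRNA 1 (24.7 and 53.2 in shGFP, 519.5 and 570.2 with shRNA 1 and 202 and 289 with shRNA 2). The matrix gene COL14A1 reached nearly the same level in all knockdown libraries (67.8 and 45.6 in shGFP, 559 and 552 with shRNA 1 and 549 and 538 with shRNA 2).

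Metabolic and secreted enzymes, a putative transporter and a chromatin protein completed the largest rises. CYP1A1, a cytochrome P450 that oxidises aromatic compounds, held 570.2 and 628 in shGFP, 6054 and 6123 with shRNA 1 and 4768 and 4550.3 with shRNA 2 and rose 8.88-fold. ACOX2, which shortens branched fatty acids in peroxisomes, held 26.7 and 29.4 in shGFP, 392 and 322 with shRNA 1 and 239.8 and 198 with shRNA 2. KLKB1, the plasma kallikrein gene, held 21.6 and 30.4 in shGFP, 264 and 248 with shRNA 1 and 213 and 196 with shRNA 2 (log2 change 3.11). SLC35F3, a putative thiamine transporter gene, held 77.1 and 71.2 in shGFP, 923 and 808 with shRNA 1 and 526 and 553 with shRNA 2 (log2 change 3.19). NUPR1, a small stress-induced chromatin protein, held 483 and 499 in shGFP, 2883 and 3049 with shRNA 1 and 3401 and 3217 with shRNA 2 and rose 6.37-fold, with no difference between the shRNAs that passed (-0.16, SE 0.07, adjusted p = 0.154 in limma). All of these 10 genes were higher in 4 of 4 knockdown libraries than in both controls, with adjusted p in limma of at most 1.19e-11.

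The 10 largest falls included secreted, adhesion and signalling genes. CER1, a secreted inhibitor of Nodal and BMP signals, held 165 and 176 in shGFP, 0 and 2.93 with shRNA 1 and 4.59 and 1.03 with shRNA 2, which is near 0 in all knockdown libraries (log2 change -6.05, SE 0.67, adjusted p = 6.05e-08, and log2 change -4.66 with a pseudocount of 5). HEPACAM2, an adhesion molecule gene, held 715 and 719 in shGFP, 12.6 and 26.4 with shRNA 1 and 73.5 and 45.5 with shRNA 2 and fell further with shRNA 1 (difference -1.61, SE 0.30). CA6, a secreted carbonic anhydrase, held 336 and 334 in shGFP, 31.4 and 5.87 with shRNA 1 and 5.51 and 14.5 with shRNA 2. RGS4, which shortens signals of G protein-coupled receptors, held 892 and 835 in shGFP, 53.4 and 60.6 with shRNA 1 and 57.9 and 66.1 with shRNA 2 and fell 14.3-fold (-3.90 with shRNA 1 and -3.78 with shRNA 2). PPP1R17, a phosphatase inhibitor gene, held 244 and 188 in shGFP, 16.8 and 20.5 with shRNA 1 and 7.35 and 5.16 with shRNA 2. It lies within the annotated range of PDE1C, which rose (1.49).

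For another 4 of the largest falls the 2 shGFP libraries lay apart, with replicate 1 above replicate 2. HMCN2, a matrix protein gene, held 244 and 136 in shGFP, 3.14 and 1.96 with shRNA 1 and 9.19 and 11.4 with shRNA 2. MYO15A, a myosin of the inner ear, held 256 and 173 in shGFP, 18.9 and 14.7 with shRNA 1 and 11.9 and 32.0 with shRNA 2. COL20A1 and CHRNA4, which encode a collagen and a nicotinic receptor subunit, are neighbours on chromosome 20, at 63293186 to 63334806 and 63343223 to 63361349. CHRNA4 held 172 and 118 in shGFP, 10.5 and 3.91 with shRNA 1 and 9.19 and 15.5 with shRNA 2. COL20A1 held 246 and 98.7 in shGFP, 20.9 and 4.89 with shRNA 1 and 8.27 and 17.6 with shRNA 2. The means of CHRNA4 and COL20A1 in the siRNA libraries were 0.387 and 2.42, on the separate scale of those libraries. Without shGFP replicate 1 the change of COL20A1 in limma was -3.03, adjusted p = 0.00889, and without replicate 2 it was -4.34, adjusted p = 0.000831. The part of background reads in these falls was not tested.

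**Figure D2:**
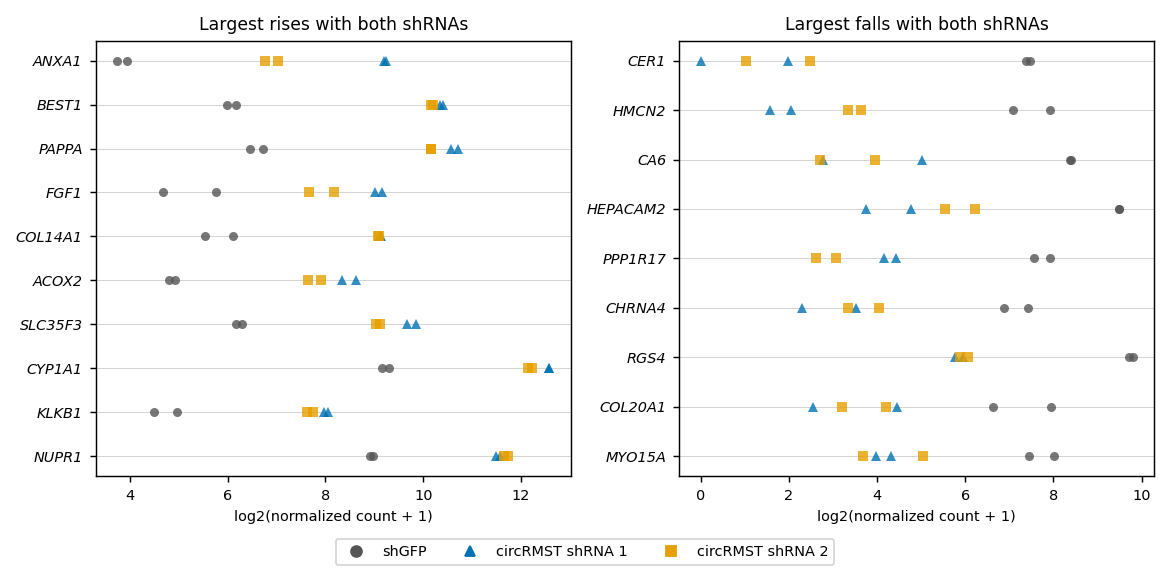
Each symbol is a library, placed by log2 of the normalized count plus 1, for the 10 largest rises and for 9 of the 10 largest falls with both shRNAs. No knockdown library overlaps a shGFP library in any of these genes, and the shGFP libraries of HMCN2 and COL20A1 lie apart from each other.

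Among changes of at least 2-fold, the 6 rises with the largest shift in normalized counts included an iron store, an integrin chain and a sestrin. FTH1, the heavy chain of the iron store ferritin, held 22188 and 22415 in shGFP, 81563 and 84724 with shRNA 1 and 61661 and 60847 with shRNA 2 and rose 3.2-fold. ITGB1, the shared beta chain of many integrins, rose 3.02-fold (9432 and 8674 in shGFP, 28326 and 27992 with shRNA 1 and 25544 and 27389.7 with shRNA 2). SESN3, a sestrin that restrains the growth kinase mTORC1, rose 5.23-fold (3234 and 3031 in shGFP, 17404 and 17577 with shRNA 1 and 14738 and 15903 with shRNA 2). MAP2, a dendritic microtubule protein, OXCT1, which burns ketone bodies, and SPTAN1, a spectrin of the membrane skeleton, rose by 1.04, 1.03 and 1.04 on the log2 scale.

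The matching falls included a reductase, a chaperone and a granin. TXNRD1, the cytosolic thioredoxin reductase, held 23844 and 23517 in shGFP, 5270.4 and 5358 with shRNA 1 and 5842 and 5972 with shRNA 2 and fell 4.23-fold. CD24, a surface glycoprotein, held 29176 and 27979.8 in shGFP, 7496 and 7147 with shRNA 1 and 6543 and 6599.8 with shRNA 2 and fell 4.12-fold. IGFBP5, a binding protein of insulin-like growth factors, held 33900.3 and 39229 in shGFP, 15753 and 16957 with shRNA 1 and 17350.1 and 15399.8 with shRNA 2 (-1.16 with shRNA 1 and -1.16 with shRNA 2). CALR, the ER chaperone calreticulin, held 25928 and 27408 in shGFP, 9959.6 and 10759.6 with shRNA 1 and 14026 and 13702 with shRNA 2 (log2 change -1.15). SCG2, a granin of secretory granules, held 52815 and 50497 in shGFP, 30084 and 31232 with shRNA 1 and 20940.1 and 21034 with shRNA 2 and fell further with shRNA 2 (-0.75 with shRNA 1 and -1.30 with shRNA 2). The groups did not overlap for any of these genes.

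Stress response regulators rose together. Of 18 measured, 17 rose and 1 fell, with a median of 1.08 against 0.080 over all measured genes, and 10 rose at least 2-fold. With equal totals 17 rose and 1 fell as well. DDIT3, a transcription factor of prolonged stress, held 280.5 and 229 in shGFP, 1338 and 1292 with shRNA 1 and 1033 and 953 with shRNA 2 and rose 4.49-fold (log2 change 2.17, SE 0.09, adjusted p = 6.09e-15). GDF15, a stress hormone gene, held 234 and 192 in shGFP, 2002 and 1653 with shRNA 1 and 836 and 727 with shRNA 2 and rose more with shRNA 1 (difference 1.22, SE 0.12, adjusted p = 7.64e-08 in limma). The transcription factor genes JDP2 (1.96), ATF5 (1.65) and CEBPB (1.20) and the sestrin gene SESN2 (1.86) rose as well, while ATF4 itself rose little (0.38). KLHL24, an ubiquitin ligase adaptor gene, was the member that fell (-0.34).

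Genes of amino acid synthesis and of tRNA loading rose more often than they fell. Of 19 genes of amino acid synthesis and transport, 13 rose and 1 fell (ranges 11 to 13 and 1 to 5, moved without shRNA 2 replicate 1, median 0.47), against 11 and 5 with equal totals. CTH, which makes cysteine, held 392 and 367 in shGFP, 1274 and 1137 with shRNA 1 and 1051 and 997 with shRNA 2 (log2 change 1.55). The glycine transporter gene SLC6A9 (1.10), PYCR1 of proline synthesis (0.94) and PHGDH and ASNS of serine and asparagine synthesis (0.77 and 0.47) rose. The transporter genes SLC7A5, SLC3A2, SLC7A1 and SLC38A2 did not pass, at -0.083, -0.14, -0.042 and -0.088, and ALDH18A1, an early step of proline synthesis, fell (-0.72). Of 20 cytosolic tRNA synthetases, which load amino acids onto tRNAs, 15 rose and 2 fell (ranges 13 to 15 and 2 to 4, median 0.53). SARS1 for serine held 6112 and 6469 in shGFP, 15514 and 16338 with shRNA 1 and 11419.7 and 10926 with shRNA 2 (log2 change 1.08), and WARS1 for tryptophan rose as well (0.99). NARS1 for asparagine went the other way, with 18272 and 17673 in shGFP, 10929.5 and 11729.8 with shRNA 1 and 11447 and 11524 with shRNA 2 (log2 change -0.66), as did FARSB (-0.59), a subunit of the phenylalanine enzyme whose partner FARSA rose (0.55).

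Promoters were searched for the letters TGATGNAA on both strands, a composite site of ATF4 and a CEBP partner, in the 250 bases upstream of each RefSeq start. The letters were found in 3.89% of all 27305 genes with a promoter and 2.39% of measured genes. They occurred in 4 of 16 stress regulators, 3 of 14 amino acid genes and 3 of 16 tRNA synthetases with a promoter in the table, and in 5.84% of genes that rose and 3.12% of genes that fell at least 2-fold. Some other motifs searched in the same way also differed, in both directions, between the genes that rose 2-fold and all measured genes. TGANTCA of AP-1 was found in 11.4% against 5.86%, CATTGTT of SOX factors in 4.62% against 2.38% and CACTTGA of NKX2-1 in 3.65% against 2.15%. TGACGTCA of CREB was less frequent, in 1.95% against 3.66%, and TTGCGTG of AHR was nearly equal, in 1.70% against 1.78%. Genes that fell at least 2-fold also lay above all measured genes for AP-1 (7.8%), SOX (3.34%) and NKX2-1 (2.45%). They lay below them for CREB (3.34%) and AHR (0.891%). Windows around the site are shown for 4 of these genes, because the lists rose together, with the matching letters or their reverse complement in capitals. They lie upstream of the start on GRCh38.p14, at chr1:212565190-212565250 (plus strand), chr15:40953236-40953296 (plus), chr7:97872442-97872502 (minus) and chr16:70289659-70289719 (minus). CHAC1, which degrades glutathione, holds its site on the opposite strand, as does AARS1, the alanine tRNA synthetase gene.
ATF3: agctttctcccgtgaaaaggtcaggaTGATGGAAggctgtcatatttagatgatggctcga
CHAC1: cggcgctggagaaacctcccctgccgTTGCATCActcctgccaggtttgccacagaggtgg
ASNS: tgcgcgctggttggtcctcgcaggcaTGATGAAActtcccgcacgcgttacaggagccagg
AARS1: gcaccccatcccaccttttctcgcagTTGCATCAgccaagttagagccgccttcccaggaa
The log2 changes of these 4 genes were 0.60, 1.14, 0.47 and 0.83, and a match of letters does not show binding.

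Most ER chaperones rose, with a few that fell sharply. Of 20 chaperones and folding enzymes, 14 rose and 4 fell (median 0.47). HSPA5, the main Hsp70 of the ER, held 10429 and 10830.1 in shGFP, 21193 and 23958 with shRNA 1 and 16642 and 16103 with shRNA 2 (log2 change 0.85). The disulfide isomerase PDIA3 held 14141 and 14067 in shGFP, 34393 and 33977 with shRNA 1 and 21795 and 22672 with shRNA 2 (log2 change 0.97). The lectin chaperone CANX rose as well (0.87), whereas CALR, which works with PDIA3 and CANX on glycoproteins, fell 2.23-fold. CRELD2, a stress-induced ER protein gene, fell 2.82-fold (906 and 865 in shGFP, 328 and 306 with shRNA 1 and 308 and 313 with shRNA 2). Of 16 ER stress sensors and genes of ER-associated degradation, 7 rose and 5 fell (6 and 8 with equal totals, balance turned with equal totals and median turned under all 4 scalings, ranges 6 to 7 and 3 to 8). The sensor gene ERN1 rose (0.59) and its substrate XBP1 fell, with 10568 and 10313 in shGFP, 6702 and 6179 with shRNA 1 and 5684 and 5562 with shRNA 2 (log2 change -0.80).

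The ERSE letters, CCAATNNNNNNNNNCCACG on either strand, were found in 0.0916% of all genes with a promoter, 0.146% of measured genes and 7 of 18 ER chaperones. Among genes with a promoter that changed at least 2-fold, they were found in 0 of 411 that rose and 3 of 449 that fell. Both directions of change occurred among the ER chaperones with the element. HSPA5 and HSP90B1, which encode the ER members of the Hsp70 and Hsp90 families, rose (0.85 and 0.65), CALR and CRELD2 fell (-1.15 and -1.49), and their windows are shown to compare them, with the element in capitals. They lie on GRCh38.p14 at chr9:125241370-125241430 (minus strand), chr12:103930195-103930255 (plus), chr19:12938363-12938423 (plus) and chr22:49918533-49918593 (plus). CALR and CRELD2 hold the element on the opposite strand, so its reverse complement is shown. HSP90B1 holds a second element on the opposite strand, at chr12:103930300-103930360, which is not shown. ERO1B of the same list, with the element on the opposite strand, did not pass (0.048). Elements on the opposite strand thus occurred in genes that rose, fell or did not pass.
HSPA5: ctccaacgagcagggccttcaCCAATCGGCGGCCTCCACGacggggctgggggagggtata
HSP90B1: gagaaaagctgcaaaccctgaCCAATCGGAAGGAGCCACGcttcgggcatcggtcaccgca
CALR: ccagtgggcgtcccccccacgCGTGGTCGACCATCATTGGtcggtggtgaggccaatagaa
CRELD2: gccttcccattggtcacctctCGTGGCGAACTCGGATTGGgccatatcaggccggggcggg

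Lysosomal genes rose more often than they fell. Of 26 lysosomal proteins, 18 rose and 3 fell (median 0.33). The protease gene CTSD held 136 and 131 in shGFP, 389.6 and 315 with shRNA 1 and 289 and 333 with shRNA 2 (log2 change 1.30). CTSL, a second protease gene, held 1003 and 1073 in shGFP, 2965 and 3421 with shRNA 1 and 1954 and 1883 with shRNA 2 (log2 change 1.25). The sphingolipid activator PSAP rose too (0.89), while the cholesterol carrier NPC2 and the peptidase TPP1 fell (-0.65 and -0.62). Of 21 autophagy genes, 11 rose and 5 fell (ranges 8 to 11 and 2 to 6, moved without shRNA 1 replicate 2, shRNA 2 replicate 1, shRNA 2 replicate 2 or shGFP replicate 2). SQSTM1, a cargo receptor, held 3074 and 3377 in shGFP, 9388 and 8662 with shRNA 1 and 6000.2 and 5423 with shRNA 2 (log2 change 1.15), and the kinase ULK2 rose (1.20).

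In traffic between the ER and lysosomes, single subunits had large changes in both directions. Of 19 subunits of the vacuolar ATPase, which acidifies lysosomes, 9 rose and 8 fell (8 and 9 with equal totals, balance turned with equal totals). ATP6V1E2 rose (1.17), and ATP6V1H and ATP6V0B fell (-1.23 and -1.14). Of 19 subunits of vesicle coats, 7 rose and 4 fell, and the median of 0.14 turned to -0.0096 with equal totals. SEC23A of the COPII coat held 7212 and 6937 in shGFP, 14806 and 15181 with shRNA 1 and 12923 and 13234 with shRNA 2 (log2 change 0.99). ARCN1 of the COPI coat went the other way, with 9625 and 9471 in shGFP, 4102 and 4245 with shRNA 1 and 3829 and 4125 with shRNA 2 (log2 change -1.23). Of 25 genes of N-glycosylation, 10 rose and 5 fell, and the catalytic subunit STT3B rose (1.15).

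Other parts of protein folding and turnover had balances that depended on the scaling. Of 18 cytosolic heat shock chaperones, 8 rose and 3 fell (3 and 5 with equal totals, balance turned with equal totals and median turned with equal totals and the median ratio, ranges 3 to 9 and 0 to 5, moved without shGFP replicate 2), and the co-chaperone BAG3 rose (0.65). Of 35 proteasome subunits and assembly factors, 13 rose and 9 fell (4 and 14 with equal totals, balance and median turned under all 4 scalings, ranges 4 to 13 and 4 to 14, moved without shGFP replicate 1), and the assembly factor PSMD5 fell (-0.90). Of 8 subunits of the chaperonin TRiC, which folds actin and tubulin, 3 rose and 2 fell (1 and 4 with equal totals, balance and median turned under all 4 scalings, ranges 0 to 3 and 1 to 4, moved without shRNA 1 replicate 2, shRNA 2 replicate 1 or shGFP replicate 1), and CCT7 fell (-0.50).

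Cytosolic ribosomal protein genes fell together by a small amount. Of 83, none rose and 72 fell, with a median of -0.32. In 62 of them all 4 knockdown libraries lay below both controls, against 25.5% of all measured genes. Over the alternatives 46 fell without a variance trend and 78 with equal totals, the lowest and highest counts. RPL19 and RPL23 changed far more than the rest. RPL19 held 10695 and 10143 in shGFP, 2892 and 2358 with shRNA 1 and 2915 and 3045 with shRNA 2 (log2 change -1.90). RPL23 held 15001 and 14048 in shGFP, 3683 and 4228 with shRNA 1 and 4675 and 4264 with shRNA 2 (log2 change -1.79). No other ribosomal protein gene fell 2-fold. Of 74 mitochondrial ribosomal protein genes, 18 rose and 24 fell (ranges 9 to 18 and 15 to 34, median -0.0018), and MRPS33, MRPL37 and MRPL42 were among the 4 that fell at least 2-fold (-1.45, -1.30 and -1.21). Of 12 elongation factors and other mRNAs that share the 5′ terminal motif of ribosomal protein mRNAs, 4 rose and 7 fell (ranges 2 to 4 and 4 to 8, moved without shGFP replicate 1), against 2 and 8 with equal totals. EEF1A1, which brings tRNAs to the ribosome, held 117248 and 108617 in shGFP, 92617 and 88239 with shRNA 1 and 83057 and 87081 with shRNA 2 (log2 change -0.36).

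Among translation initiation factors a few subunits moved far more than the list. Of 51 members, 21 rose and 14 fell (13 and 22 with equal totals, balance turned with equal totals and the median ratio and median turned under all 4 scalings, ranges 12 to 21 and 8 to 22). EIF3I, a subunit of the scaffold complex eIF3, held 9249 and 9758 in shGFP, 1722 and 1682 with shRNA 1 and 2283 and 2203 with shRNA 2 and fell 4.86-fold (log2 change -2.28, SE 0.05, adjusted p = 1.77e-19). EIF2S3, a subunit of the factor that brings the initiator tRNA, held 9134 and 8927 in shGFP, 3385 and 3240.0 with shRNA 1 and 3993 and 4052 with shRNA 2 (log2 change -1.31). EIF5A2, a variant of the elongation and initiation factor EIF5A, rose (1.17). In ribosome biogenesis 7 of 23 rose and 3 fell (4 and 13 with equal totals, balance turned under all 4 scalings, ranges 4 to 7 and 2 to 13, moved without shRNA 1 replicate 2 or shGFP replicate 2). PES1, which processes ribosomal RNA, held 3036 and 3587 in shGFP, 1084 and 1108 with shRNA 1 and 1692 and 1504 with shRNA 2 (log2 change -1.32). Host genes, whose introns give rise to small nucleolar RNAs, fell in 10 of 15 and rose in 1 (median -0.53). SNHG29 held 13118 and 14675 in shGFP, 6014 and 6534 with shRNA 1 and 7519 and 7099 with shRNA 2 (log2 change -1.04), and SNHG3 and GAS5 fell as well (-1.14 and -0.55).

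Splicing factor genes fell more often than they rose. Of 14 SR proteins, which promote the use of exons, 2 rose and 6 fell (ranges 0 to 2 and 3 to 9, moved without shRNA 2 replicate 1 or shGFP replicate 2), and of 28 hnRNP proteins, 2 rose and 12 fell (ranges 2 to 3 and 8 to 20). Their medians were -0.12 and -0.11. PTBP3, a repressor of exons, held 9282 and 9091 in shGFP, 1668 and 1789.7 with shRNA 1 and 1913 and 1987 with shRNA 2 (log2 change -2.32). Its paralog PTBP2, the form of neurons, rose, with 3290.0 and 3073 in shGFP, 6261 and 6613 with shRNA 1 and 5117 and 5238 with shRNA 2 (log2 change 0.86). HNRNPA1, which has several processed copies in the genome whose reads cannot be told apart here, fell (-0.77).

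**Figure D3:**
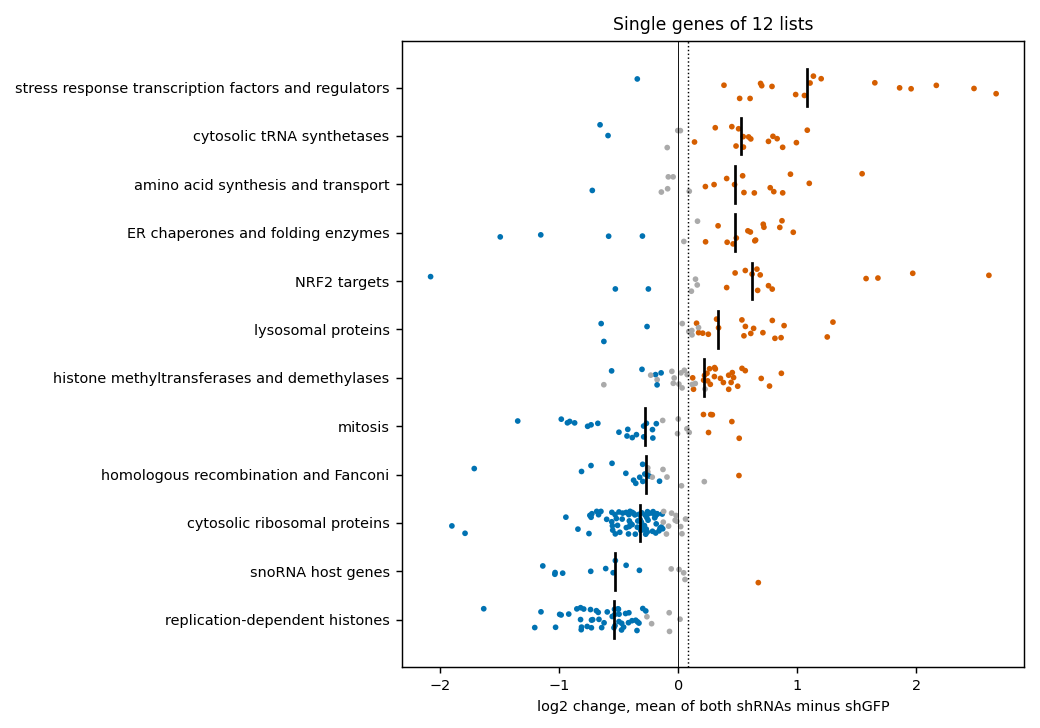
Each dot is a measured gene of 12 lists, placed by its log2 change averaged over both shRNAs (orange rose, blue fell, grey not past the test). Black bars are list medians and the dotted line is the median of all measured genes, 0.080. Stress regulators lie to the right, ribosomal proteins, snoRNA hosts and replication-dependent histones lie to the left, and RPL19 and RPL23 are the ribosomal proteins near -2.

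Histone genes that are transcribed during DNA replication fell nearly throughout. Of 51 measured, none rose and 46 fell (median -0.54), and in 46 all 4 knockdown libraries lay below both controls. Their mRNAs normally carry no poly(A) tail, and 17 of the genes that fell had a mean under 10 in the siRNA libraries. H1-2, a linker histone gene, held 4216 and 3881 in shGFP, 1411 and 1132 with shRNA 1 and 1286 and 1407 with shRNA 2 (log2 change -1.63). H2BC7 and H2BC14, which encode H2B, fell as well (-1.20 and -1.15). Histone genes are close copies of each other, so that reads may be split between them.

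Cell division genes fell less uniformly. Of 30 mitotic genes, 6 rose and 19 fell (median -0.28). FOXM1, the transcription factor of the mitotic program, held 1796 and 1828 in shGFP, 617 and 623 with shRNA 1 and 816 and 817 with shRNA 2 (log2 change -1.35). The spindle genes NUSAP1 and CENPE fell (-0.98 and -0.93), while the mitotic regulators PLK1 and CDC20 rose (0.51 and 0.45). Of 22 genes of homologous recombination and the Fanconi pathway, which repair broken and cross-linked DNA, 1 rose and 14 fell (ranges 1 and 8 to 18, moved without shGFP replicate 1, median -0.27). BLM, a helicase gene, held 2630.3 and 2429.9 in shGFP, 800.2 and 695 with shRNA 1 and 771 and 822 with shRNA 2 (log2 change -1.71). EXO1, an exonuclease gene, held 5702 and 5363 in shGFP, 2695 and 2573 with shRNA 1 and 3703 and 3835 with shRNA 2 (log2 change -0.81).

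Of 38 DNA replication genes, 11 rose and 14 fell, against 9 and 21 with equal totals. The polymerase clamp PCNA rose (0.68), and GINS1 and GINS2 of the replicative helicase fell (-1.08 and -0.92). Of 18 cohesin and condensin genes, 4 rose and 9 fell (ranges 2 to 4 and 6 to 13). SMC3, a cohesin ring subunit, held 11926 and 11092 in shGFP, 5350.0 and 5938 with shRNA 1 and 5491 and 5771 with shRNA 2 (log2 change -1.03). Of 18 p53 targets, 10 rose and 3 fell (ranges 9 to 11 and 0 to 5, median 0.24), with GDF15 and SESN2 on this list as well as among the stress regulators. CDKN1A, a brake on the cell cycle, held 803 and 930.2 in shGFP, 1862 and 1659.6 with shRNA 1 and 2338 and 2191 with shRNA 2 (log2 change 1.21). Of 11 MYC family genes and partners, 2 rose and 6 fell (ranges 0 to 2 and 4 to 7, moved without shRNA 1 replicate 2, shRNA 2 replicate 2 or shGFP replicate 1). MYCL, a MYC gene of neuroendocrine tumours, held 257 and 282 in shGFP, 36.7 and 40.1 with shRNA 1 and 89.1 and 67.1 with shRNA 2 (log2 change -2.28). MXD1, which competes with MYC for its partner MAX, fell too (-1.28), as did MYC (-0.65).

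Antioxidant genes driven by the factor NRF2 rose in 13 of 19 and fell in 3 (median 0.62). HMOX1, which breaks down heme, held 132 and 118 in shGFP, 1259 and 1151 with shRNA 1 and 489.8 and 481 with shRNA 2 (log2 change 2.61). OSGIN1, an oxidative stress gene, held 296 and 366 in shGFP, 1518 and 1309 with shRNA 1 and 1192 and 1182 with shRNA 2 (log2 change 1.97), and the efflux pump gene ABCC3 rose (1.58). Of the thioredoxin system, some genes fell. Besides TXNRD1, its substrate TXN fell, with 5625 and 5111 in shGFP, 4472 and 4717 with shRNA 1 and 2843 and 3192 with shRNA 2 (log2 change -0.53), and PRDX1, which uses thioredoxin to remove peroxide, was at -0.25, a call lost without a variance trend (adjusted p = 0.0515 in limma). NFE2L2, which encodes NRF2, did not pass (0.16). In the aryl hydrocarbon receptor pathway 6 of 9 rose and 1 fell (ranges 5 to 6 and 1 to 3, moved without shRNA 1 replicate 1). Besides CYP1A1, the receptor gene AHR rose, with 914 and 932 in shGFP, 1907 and 1925 with shRNA 1 and 1174 and 1391 with shRNA 2 (log2 change 0.76). The repressor AHRR rose (0.68), and TIPARP, a target that dampens the receptor, fell (-0.42). MT2A was the only measured metallothionein and rose (0.68).

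Glycolysis and fatty acid genes rose more often than they fell. Of 18 glycolytic genes, 12 rose and 1 fell (ranges 7 to 12 and 1, median 0.24). LDHB, a lactate dehydrogenase gene, held 3339 and 3287 in shGFP, 6712 and 6982 with shRNA 1 and 5663 and 5296 with shRNA 2 (log2 change 0.89). HK2, a hexokinase gene, was the one that fell, with 316 and 345 in shGFP, 90.1 and 103 with shRNA 1 and 188 and 161 with shRNA 2 (log2 change -1.34). Of 15 hypoxia targets, 9 rose and 4 fell (ranges 7 to 10 and 2 to 4, moved without shGFP replicate 1 or shGFP replicate 2), with large changes in both directions. VEGFA, the vascular growth factor, held 1023 and 1043 in shGFP, 2258 and 2224 with shRNA 1 and 2228 and 2202 with shRNA 2 (log2 change 1.11). NDRG1, a stress-responsive gene, held 3081 and 3301 in shGFP, 682 and 678 with shRNA 1 and 867 and 754 with shRNA 2 (log2 change -2.10). In fatty acid synthesis 8 of 15 rose and 3 fell (ranges 8 and 2 to 5), and in fatty acid oxidation 12 of 20 rose and 3 fell (ranges 9 to 12 and 2 to 5), where PPARA, the nuclear receptor of that pathway, rose (0.91).

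In cholesterol synthesis 8 of 23 rose and 6 fell (5 and 12 with equal totals, balance turned under all 4 scalings, ranges 4 to 9 and 4 to 12). SREBF2, the transcription factor of the pathway, held 1404 and 1447 in shGFP, 698 and 624 with shRNA 1 and 717 and 726 with shRNA 2 (log2 change -1.05). In the tricarboxylic acid cycle 7 of 23 rose and 7 fell (ranges 6 to 7 and 6 to 13), against 6 and 13 with equal totals, where the cytosolic aconitase gene ACO1 fell (-0.82). Of 71 nuclear genes for subunits of oxidative phosphorylation, 27 rose and 8 fell (13 and 24 with equal totals, balance turned with equal totals and median turned with equal totals and the median ratio, ranges 13 to 27 and 6 to 24). UQCR10 of complex III rose, with 1533 and 1464 in shGFP, 3786 and 2975 with shRNA 1 and 3176 and 3159 with shRNA 2 (log2 change 1.12), and NDUFB5 of complex I fell (-0.95).

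Of 13 mRNAs of the mitochondrial genome, 2 rose and 7 fell (ranges 1 to 4 and 4 to 8, moved without shGFP replicate 2). MT-ND6, the only one that lies on the light strand, held 4986 and 6778 in shGFP, 1097 and 2169 with shRNA 1 and 3399.8 and 2407 with shRNA 2 (log2 change -1.47, SE 0.16, adjusted p = 6.68e-08). The other 12 lie on the heavy strand, and their changes ran from -0.41 (MT-ND3) to 0.40 (MT-ND1). The tRNAs of this genome were looked at after this contrast was seen. The light-strand tRNA genes MT-TE, MT-TP, MT-TQ, MT-TS1, MT-TY and MT-TA fell, by 1.5 to 3.96 on the log2 scale. MT-TP held 607 and 694 in shGFP, 106 and 127 with shRNA 1 and 181 and 126 with shRNA 2. On the heavy strand MT-TF fell (-1.30), MT-TI rose (0.64), and MT-TT and MT-TW did not pass (0.30 and 0.30). Of these tRNAs MT-TY, MT-TF and MT-TW had means under 50. Whether reads were counted by strand is not given in the sources used here.

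Neuroendocrine markers split in direction. Of 30 measured, 12 rose and 14 fell (median -0.13). INSM1, a zinc finger transcription factor of neuroendocrine cells, held 5159 and 6024 in shGFP, 1860.2 and 1919.8 with shRNA 1 and 2597 and 2578 with shRNA 2 (log2 change -1.33). GRP, a growth peptide of the bombesin family, held 6028 and 5918 in shGFP, 729 and 723 with shRNA 1 and 959 and 1052 with shRNA 2 (log2 change -2.80). The receptor kinase RET fell, with 3819 and 3846 in shGFP, 1321 and 1423 with shRNA 1 and 1269 and 1262 with shRNA 2 (log2 change -1.54). Others were higher. CHGA, the granin used as a diagnostic marker, held 6232 and 7015 in shGFP, 10795 and 11403 with shRNA 1 and 8231 and 7605 with shRNA 2 (log2 change 0.50). RTN1, a reticulon of the ER, held 839 and 808 in shGFP, 2798 and 2568 with shRNA 1 and 1619 and 1687 with shRNA 2 (log2 change 1.35). SYT1, the calcium sensor of vesicle release, held 4281 and 4046 in shGFP, 9943 and 9929 with shRNA 1 and 7401 and 7758 with shRNA 2 (log2 change 1.06), and the neuronal RNA-binding gene ELAVL4 rose (1.18). DLL3, SNAP25, CELF3 and BEX1 did not pass.

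Lineage transcription factors leaned downward. Of 26, 7 rose and 13 fell (ranges 3 to 8 and 13 to 15, moved without shGFP replicate 1, median -0.40), and 9 fell at least 2-fold while none rose as much. All 4 ID genes, whose proteins bind and block the partners of bHLH factors, fell. ID2 held 6260.4 and 6085 in shGFP, 1523 and 1308 with shRNA 1 and 1829 and 1779 with shRNA 2 (log2 change -1.95). ID1 held 2755 and 2886 in shGFP, 727 and 690.4 with shRNA 1 and 927 and 895 with shRNA 2 (log2 change -1.81), and the changes of ID3 and ID4 were -1.46 and -1.23. The neural factors SOX11, NKX2-2 and ST18 fell as well (-1.71, -1.17 and -1.16). Among foregut factors FOXA1 and PAX9 rose (0.35 and 0.52) and FOXA2 fell (-0.54).

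In the Notch pathway, in which neighbouring cells set each other's fate, a few genes changed far more than the list. Over all measured genes 36.4% rose and 25.5% fell. Of 27 genes, 11 rose and 9 fell (7 and 12 with equal totals, balance turned under all 4 scalings and median turned with equal totals and the median ratio, ranges 7 to 12 and 8 to 12, moved without shGFP replicate 2). The repressor genes HEY1 and HEY2, which Notch switches on, rose, HEY1 with 362 and 391 in shGFP, 1806 and 1876 with shRNA 1 and 810.4 and 895 with shRNA 2 (log2 change 1.73) and HEY2 by 0.98. The receptor gene NOTCH1 fell, with 230.2 and 105 in shGFP, 5.24 and 14.7 with shRNA 1 and 14.7 and 15.5 with shRNA 2 (log2 change -3.64). Its shGFP libraries lay apart, with replicate 1 above replicate 2, and the part of background reads in this fall was not tested. DLK1, an inhibitory ligand, held 148 and 209 in shGFP, 13.6 and 21.5 with shRNA 1 and 28.5 and 34.1 with shRNA 2 (log2 change -2.87), and the ligand DLL4 fell too (-1.54).

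**Figure D4:**
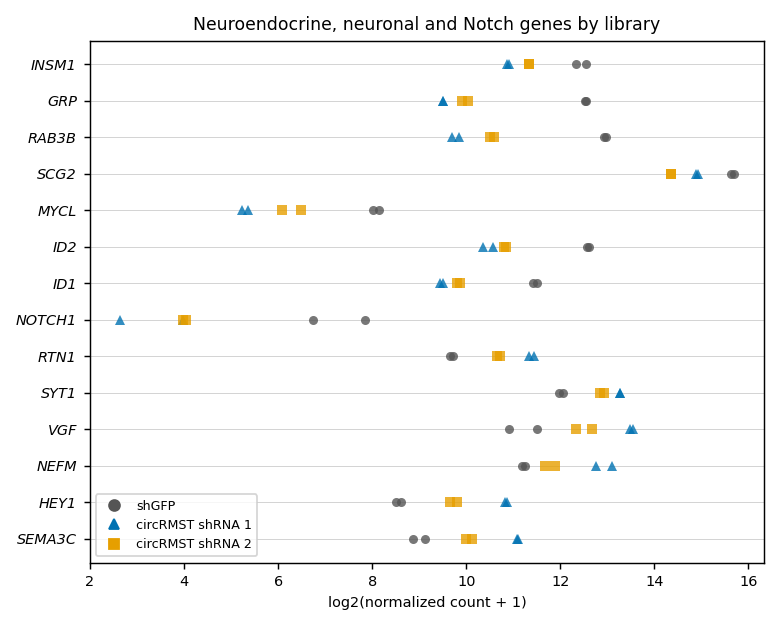
Each symbol is a library, placed by log2 of the normalized count plus 1, for 14 neuroendocrine, neuronal and Notch genes. The 8 genes at the top, from INSM1 to NOTCH1, lie lower in all 4 knockdown libraries than in shGFP, and the 6 from RTN1 to SEMA3C lie higher.

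Secretory genes also went both ways. Of 7 measured secreted peptide genes, 2 rose and 5 fell (ranges 1 to 2 and 3 to 5, moved without shGFP replicate 1). NTS, which encodes neurotensin, held 2574 and 2553 in shGFP, 1075 and 970.1 with shRNA 1 and 434 and 453 with shRNA 2 (log2 change -1.93). Neuromedin U, NMU, fell too (-2.14), and CALCB, a gene of calcitonin-related peptide, rose (0.76). Of 14 granins and processing enzymes, 8 rose and 6 fell. VGF, a granin-like precursor, held 1929.6 and 2906 in shGFP, 11379 and 11930.3 with shRNA 1 and 6523 and 5180.4 with shRNA 2 (log2 change 1.80). The convertase inhibitor PCSK1N rose (1.04), and the convertase PCSK2 fell, with 4355 and 4296 in shGFP, 2279 and 2287 with shRNA 1 and 1691 and 1515 with shRNA 2 (log2 change -1.18). Of 35 genes of synaptic vesicles and exocytosis, 9 rose and 16 fell. RAB3B, a GTPase of secretory vesicles, held 7796 and 8017 in shGFP, 919.6 and 828 with shRNA 1 and 1537 and 1448 with shRNA 2 (log2 change -2.79), and its paralog RAB3D fell too (-1.39).

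Families of neuronal adhesion molecules had medians of opposite sign. Of 28 contactins, neurexins, neuroligins and related adhesion genes, 16 rose and 5 fell (ranges 10 to 16 and 3 to 6, moved without shRNA 1 replicate 1, shRNA 2 replicate 1 or shGFP replicate 1, median 0.22). CNTN5 held 93.5 and 128 in shGFP, 371 and 331 with shRNA 1 and 291 and 376 with shRNA 2 (log2 change 1.63), and LSAMP rose (1.03). Of 27 clustered protocadherins, which give single neurons their surface identity, 3 rose and 13 fell (median -0.44). PCDHAC2, the last variable exon of the alpha cluster, was among those that rose, with 57.5 and 56 in shGFP, 294 and 243 with shRNA 1 and 241 and 167 with shRNA 2 (log2 change 2.01), and PCDHB9 fell (-1.66). Genes of the alpha and gamma clusters share their last exons, so that their reads are uncertain.

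Of 34 voltage-gated channels, 13 rose and 7 fell (9 and 10 with equal totals, balance and median turned with equal totals), against 36.4 and 25.5% of all measured genes. The sodium channel SCN9A held 905 and 930.2 in shGFP, 2383 and 2440.0 with shRNA 1 and 2317 and 2316 with shRNA 2 (log2 change 1.36). SCN1A rose as well (1.48), while SCN3A fell, with 5604 and 5241 in shGFP, 2322 and 2155 with shRNA 1 and 2199.8 and 2241 with shRNA 2 (log2 change -1.28). Of 23 genes of the neuronal cytoskeleton and axon growth, 10 rose and 9 fell (8 and 10 with equal totals, balance turned under all 4 scalings and median turned with equal totals and the median ratio, ranges 8 to 10 and 5 to 10, moved without shGFP replicate 2). The neurofilament gene NEFM held 2325 and 2423 in shGFP, 6940.0 and 8805 with shRNA 1 and 3802 and 3279 with shRNA 2 (log2 change 1.15). NEFH held 532 and 519 in shGFP, 2768 and 2918 with shRNA 1 and 1039 and 937 with shRNA 2 (log2 change 1.67). Both were higher with shRNA 1 than with shRNA 2 (differences 1.15 and 1.53, adjusted p = 1.06e-09 and 1.32e-11 in limma). The microtubule proteins CRMP1 and DCLK1 fell (-0.93 and -0.78).

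In axon guidance 10 of 20 rose and 6 fell among semaphorins, plexins and neuropilins (8 and 9 with equal totals, balance turned with equal totals, ranges 8 to 10 and 3 to 9, moved without shGFP replicate 1). SEMA3C held 556 and 467 in shGFP, 2175 and 2200.4 with shRNA 1 and 1025 and 1109 with shRNA 2 (log2 change 1.58), and SEMA3A rose as well (1.14). Among ephrins and Eph receptors, 7 of 15 rose and 6 fell (5 and 7 with equal totals, balance turned with equal totals and the median ratio, ranges 3 to 7 and 5 to 7, moved without shGFP replicate 1). The receptor gene EPHA7 rose (1.16) and EPHB2 fell, with 1319 and 1274 in shGFP, 527 and 483 with shRNA 1 and 493 and 436 with shRNA 2 (log2 change -1.42).

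Secreted inhibitors and ligands were among the growth factor genes that changed most. In the Nodal, BMP and TGF-beta pathway 13 of 33 rose and 9 fell (12 and 11 with equal totals, median turned under all 4 scalings). Besides CER1, the activin inhibitor gene FST fell, with 1241 and 1177 in shGFP, 167 and 246 with shRNA 1 and 293 and 271 with shRNA 2 (log2 change -2.33). BMP2 fell (-1.22) and INHBE, an activin subunit gene, rose (1.26). LTBP1, which stores TGF-beta in the matrix, held 410.0 and 447 in shGFP, 2095 and 1985 with shRNA 1 and 1173 and 1223 with shRNA 2 (log2 change 1.87). In the Wnt pathway 7 of 26 rose and 10 fell (median -0.23). The regulator gene DACT1 held 382 and 363 in shGFP, 61.8 and 48.9 with shRNA 1 and 79.0 and 103 with shRNA 2 (log2 change -2.38), and the ligand genes WNT9A and WNT4 fell (-2.13 and -2.07).

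Of 18 receptor tyrosine kinases, 11 rose and 5 fell (median 0.31). DDR2, a collagen receptor gene, held 57.5 and 81.6 in shGFP, 258 and 258 with shRNA 1 and 334 and 286 with shRNA 2 (log2 change 2.03). TYRO3 rose as well (1.57), and PDGFRA and FGFR1 fell (-2.04 and -1.33). Among IGF ligands and their regulators, 7 of 12 rose and 2 fell. STC1, an inhibitor of PAPPA, held 1898 and 1985 in shGFP, 12214 and 12478 with shRNA 1 and 1571 and 1717 with shRNA 2. It was far higher with shRNA 1 and slightly lower with shRNA 2 (2.67 with shRNA 1 and -0.24 with shRNA 2), so that its average of 1.21 describes neither. Among MAPK feedback genes, 7 of 16 rose and 4 fell (4 and 8 with equal totals, balance turned with equal totals and the median ratio and median turned under all 4 scalings, ranges 4 to 7 and 4 to 8, moved without shGFP replicate 1), and SPRED1, an inhibitor of Ras signals, rose (1.26). Among immediate early genes, 5 of 18 rose and 7 fell (ranges 5 and 5 to 12), and KLF6 rose while NR4A2 fell (0.55 and -0.86).

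Among NF-kB targets and inflammatory genes, 5 of 15 rose and 6 fell (4 and 7 with equal totals, median turned with equal totals and the median ratio). NFKB2, an NF-kB subunit gene, held 378 and 366 in shGFP, 96.4 and 81.2 with shRNA 1 and 96.5 and 91.9 with shRNA 2 (log2 change -2.02), and the chemokine gene CXCL8 fell (-1.73). Among YAP and TAZ targets, 5 of 11 rose and 3 fell (4 and 4 with equal totals, median turned under all 4 scalings). AJUBA, a scaffold of cell junctions, held 238 and 234 in shGFP, 1103 and 1199 with shRNA 1 and 1118 and 1194 with shRNA 2 (log2 change 2.28). Among interferon-stimulated genes, 8 of 18 rose and 3 fell (ranges 5 to 9 and 2 to 4), and BST2, which tethers viruses, rose (0.81). In class I antigen presentation 4 of 9 rose and 2 fell (ranges 3 to 4 and 1 to 2, moved without shGFP replicate 2). ERAP1, which trims peptides, held 619 and 544 in shGFP, 1258 and 1233 with shRNA 1 and 1179 and 1218 with shRNA 2 (log2 change 1.07). Among cyclic nucleotide enzymes, 12 of 34 rose and 10 fell (10 and 11 with equal totals, balance turned with equal totals and median turned with equal totals and the median ratio, ranges 10 to 12 and 6 to 11). The phosphodiesterase gene PDE1C held 2099 and 2019 in shGFP, 7729.7 and 7983 with shRNA 1 and 4196 and 4356 with shRNA 2 (log2 change 1.49). PDE6D, which is on the list by its symbol only, fell (-1.30).

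Matrix genes changed in both directions. Among collagens, 6 of 13 rose and 5 fell. COL4A2 of basement membranes held 286 and 252 in shGFP, 688 and 687 with shRNA 1 and 802 and 769 with shRNA 2 (log2 change 1.45), and COL9A3 fell (-2.06). Among laminins and other basement membrane genes, 5 of 11 rose and 5 fell (ranges 5 and 3 to 5, moved without shGFP replicate 1). LAMA3, a laminin chain gene, held 799 and 831 in shGFP, 3794 and 3573 with shRNA 1 and 3042 and 2915 with shRNA 2 (log2 change 2.02). HSPG2, which encodes perlecan, held 238 and 127 in shGFP, 32.5 and 18.6 with shRNA 1 and 34.0 and 27.9 with shRNA 2 (log2 change -2.62). The shGFP libraries of HSPG2 lay apart as well, and the part of background reads in its fall was not tested. Among integrins, 4 of 10 rose and 2 fell, and besides ITGB1 the fibronectin and vitronectin receptor chain ITGAV rose (0.63) and ITGB4 fell (-1.75). Among metalloproteinases and their inhibitors, 10 of 21 rose and 6 fell, and ADAM15 rose (1.04). Among annexins and S100 proteins, 6 of 14 rose and 4 fell (4 and 5 with equal totals, balance and median turned with equal totals and the median ratio, ranges 4 to 6 and 2 to 5, moved without shGFP replicate 2), and besides ANXA1, ANXA2 rose (1.21).

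Epithelial and mesenchymal lists each held genes that rose and genes that fell. Among tight junction and desmosome genes, 8 of 22 rose and 9 fell (ranges 4 to 8 and 7 to 11, moved without shGFP replicate 1), against 4 and 11 with equal totals. CLDN1, a claudin of tight junctions, held 27.7 and 14.2 in shGFP, 160.2 and 156 with shRNA 1 and 111 and 129 with shRNA 2 (log2 change 2.73), and the desmosomal PKP2 fell (-1.35). Among keratins and other epithelial adhesion genes, 4 of 10 rose and 5 fell (2 and 5 with equal totals, median turned with equal totals and the median ratio, ranges 0 to 5 and 3 to 5, moved without shGFP replicate 1), and the protease ST14 fell (-1.80). Among mesenchymal genes, 4 of 12 rose and 4 fell (ranges 3 to 5 and 3 to 7). FN1, which encodes fibronectin, held 3035 and 2954 in shGFP, 478 and 511 with shRNA 1 and 742 and 776 with shRNA 2 (log2 change -2.29), and the repressor ZEB2 rose (1.41). Among tubulins, 7 of 14 rose and 4 fell (5 and 5 with equal totals, median turned with equal totals), and TUBA1A rose (0.91). Among kinesins, 15 of 34 rose and 12 fell (9 and 13 with equal totals, balance and median turned with equal totals and the median ratio, ranges 9 to 15 and 8 to 13), and KIF19, a motor that shortens cilia, fell (-2.94). Among Rab GTPases, 14 of 44 rose and 15 fell, and RAB12 rose (1.77).

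Families of chromatin regulators also had counts that depended on the scaling. Among histone methyltransferases and demethylases, 24 of 43 rose and 5 fell (ranges 14 to 24 and 1 to 9, moved without shGFP replicate 1 or shGFP replicate 2, median 0.22), none of them 2-fold, against 14 and 9 with equal totals. SETD7 held 2053 and 2512 in shGFP, 4230.4 and 4649 with shRNA 1 and 3829 and 3908 with shRNA 2 (log2 change 0.87), and KMT2D, which marks enhancers, rose (0.70). Among polycomb genes, 14 of 28 rose and 4 fell (ranges 10 to 15 and 2 to 7), against 11 and 7 with equal totals, and CBX6 rose and PHC1 fell (1.01 and -0.89). Among subunits of the BAF remodeller, 12 of 26 rose and 9 fell (9 and 11 with equal totals, balance turned with equal totals, quantile normalization and the median ratio and median turned with equal totals, ranges 9 to 13 and 5 to 11, moved without shGFP replicate 2). SMARCD3, a subunit of muscle and neurons, rose, with 45.2 and 61.7 in shGFP, 185 and 173 with shRNA 1 and 153 and 152 with shRNA 2 (log2 change 1.63), and DPF3 fell (-1.44). Among Mediator subunits, 14 of 33 rose and 9 fell (7 and 14 with equal totals, balance turned under all 4 scalings and median turned with equal totals and the median ratio, ranges 7 to 14 and 6 to 14, moved without shGFP replicate 1 or shGFP replicate 2). MED1, the subunit that contacts nuclear receptors, held 4366 and 4655 in shGFP, 1478 and 1600.0 with shRNA 1 and 2099 and 2054 with shRNA 2 (log2 change -1.33). Among ZNF genes, 127 of 413 rose and 95 fell (71 and 151 with equal totals, balance turned under all 4 scalings and median turned with equal totals and the median ratio, ranges 71 to 132 and 55 to 151, moved without shGFP replicate 1). Among solute carriers, 78 of 201 rose and 56 fell (53 and 69 with equal totals, balance turned with equal totals and the median ratio and median turned with equal totals). Over all measured genes 36.4% rose and 25.5% fell, and the shares of solute carriers were near these and those of ZNF genes lower. SLC12A2, an importer of sodium, potassium and chloride, held 2183 and 2275 in shGFP, 6409 and 6974 with shRNA 1 and 5303 and 5170.1 with shRNA 2 (log2 change 1.41). SLC16A3, a lactate exporter, held 165 and 164 in shGFP, 15.7 and 17.6 with shRNA 1 and 19.3 and 23.8 with shRNA 2 (log2 change -3.06).

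**Figure D5:**
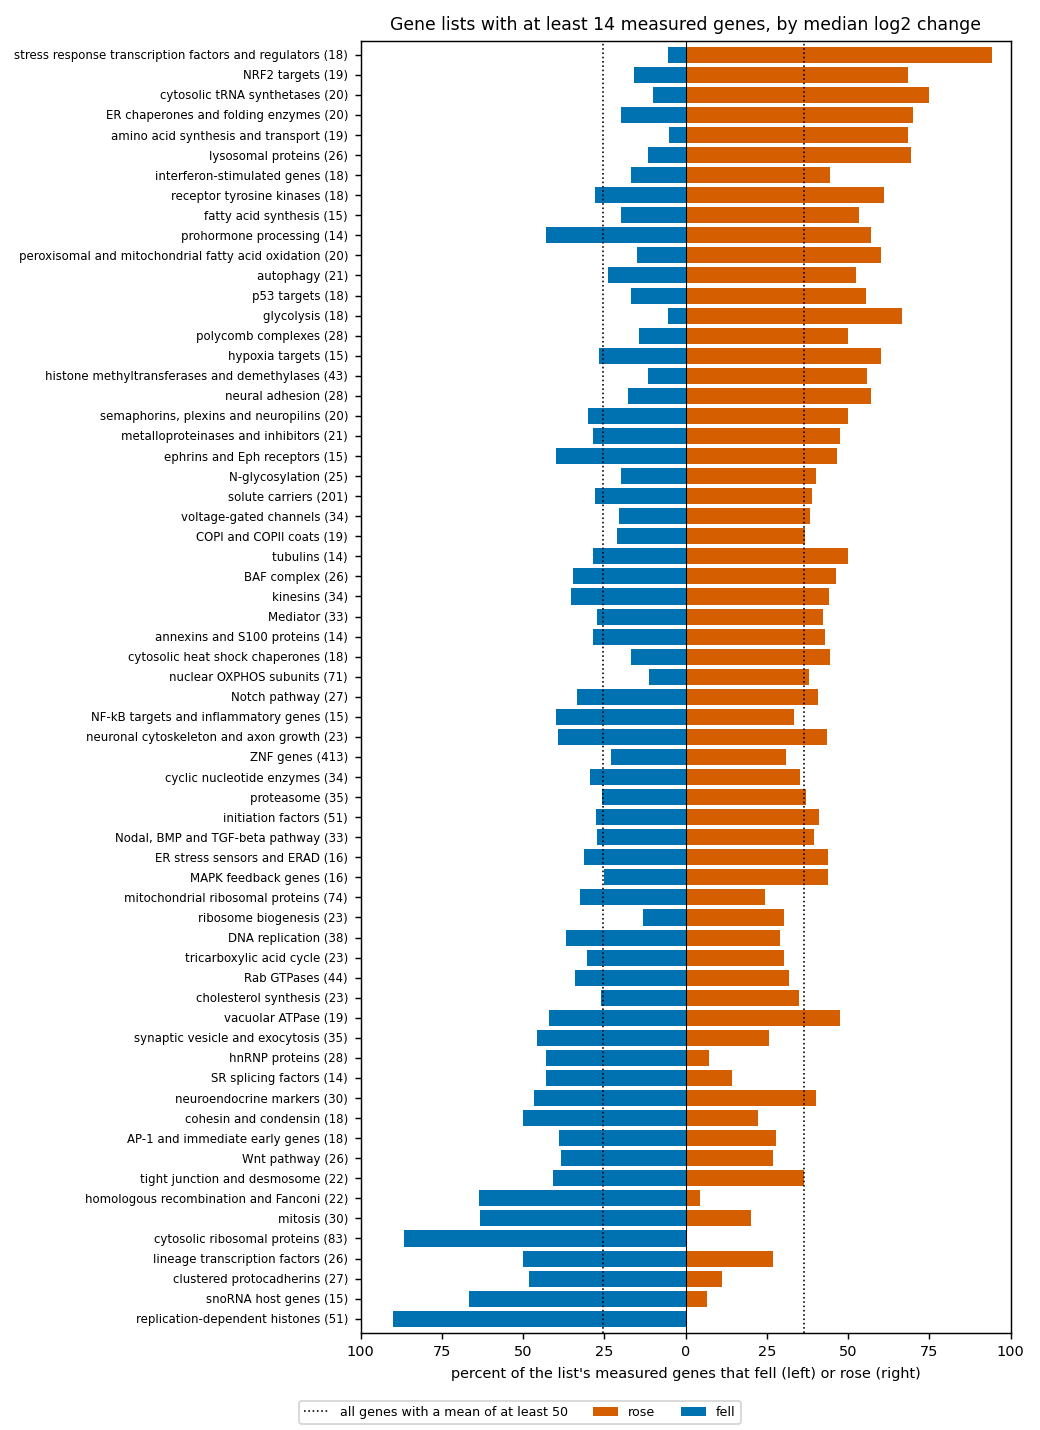
Bars give the percentage of measured genes that rose (right) or fell (left) in each list with at least 14 of them (the number stands in brackets), in the order of the list medians. Dotted lines give the shares over all measured genes, 36.4 and 25.5%, and stress regulators, NRF2 targets and tRNA synthetases stand at the top, replication-dependent histones, snoRNA hosts and clustered protocadherins at the bottom.

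Markers of other cell types were few and had no common direction. All libraries came from the SHP77 line, so these are levels of marker genes in that line, and bulk RNA does not show which cells expressed them. Of 10 fibroblast markers 3 were measured. LUM, a matrix proteoglycan gene, rose, with 121 and 97.8 in shGFP, 797 and 746 with shRNA 1 and 362 and 442 with shRNA 2 (log2 change 2.34), PDGFRA fell and FAP did not pass. Summed over the 10, the level was 1104 and 1259 in shGFP and 987 to 1485 in the knockdown libraries, and COL1A2, COL3A1 and THY1 were at most 28.5 in any library. COL1A1 reached 67.8, PDGFRB 32.9 and DCN 27.7, each highest in an shGFP library. Of 13 blood and endothelial markers 2 were measured. PECAM1, an endothelial adhesion gene, fell, with 357 and 366 in shGFP, 143 and 155 with shRNA 1 and 162 and 165 with shRNA 2 (log2 change -1.20), and CLDN5 did not pass. The summed level was 565 and 566 in shGFP and 233 to 309 in the knockdown libraries, and PTPRC, CD3E, MS4A1 and HBB were at most 12.3 in any library. CD8A reached 37.0, VWF 20.5 and CDH5 19.0, each in an shGFP library, and CD14 reached 26.9 in a library of shRNA 2. ABCA3, a lipid transporter of lung epithelium, was the only measured marker of its list and rose, with 1243 and 1282 in shGFP, 2792 and 2828 with shRNA 1 and 2619 and 2553 with shRNA 2 (log2 change 1.09). Of 4 measured tuft and gut markers, 1 rose and 3 fell, and VIL1, a protein of microvilli, fell (-2.90).

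The shRNAs differed from each other at 3460 measured genes (25.2%). Among genes that rose on average, 1099 did so more with shRNA 1 and 314 more with shRNA 2, and among those that fell 708 and 400. There were 99 genes that passed with both in opposite directions, and for the 6 named by the rule the controls lay between the shRNAs. CEACAM6, an adhesion molecule gene, held 54.5 and 50.3 in shGFP, 146 and 119 with shRNA 1 and 31.2 and 13.4 with shRNA 2. ECEL1, a neuronal peptidase gene, held 755 and 834 in shGFP, 1359.5 and 1175 with shRNA 1 and 441 and 441 with shRNA 2. VDAC1, the main pore of the outer mitochondrial membrane, held 8007 and 7910.4 in shGFP, 12472 and 12022 with shRNA 1 and 4721 and 4991 with shRNA 2. In the other direction, MYO5B, a vesicle motor, held 169 and 191 in shGFP, 116 and 118 with shRNA 1 and 239.8 and 260.3 with shRNA 2. DSEL, a dermatan sulfate enzyme gene, held 1204 and 1085 in shGFP, 850.5 and 762 with shRNA 1 and 1383 and 1454 with shRNA 2. NWD2 held 436 and 555 in shGFP, 393 and 403 with shRNA 1 and 651 and 637 with shRNA 2.

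Properties of the genes that their choice did not use were also set beside the changes, as a description. When protein-coding genes were grouped by length on the genome into classes of equal size, 47.4% of the longest class (at least 103004 bases) rose and 23.9% fell, against 31.3 and 28.0% of the shortest class (at most 10910 bases). By level, 13.9% of genes with a mean of 50 to 100 rose and 25% fell, and 48.4 and 27.7% of those at 3000 and more did, where small changes pass more easily. Of 733 measured long non-coding RNAs, 28.4% rose and 17.7% fell. Of 14 measured small nuclear RNAs, which include the parts of the spliceosome, 2 rose and 9 fell. Of 36 measured small nucleolar RNAs, 14 rose and 7 fell (median 0.22), while most of the host genes above fell. By chromosome the medians ran from 0.020 on chromosome 5 to 0.14 on chromosome 7.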

How the data were processed

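Per the labels' protocols, RNA of SHP77 cells was sequenced as stranded total RNA libraries in pairs of 150 bases. Per the submitters' processing notes, cutadapt 2.5, STAR 2.5.2b and DESeq2 (its version is not given) were used with hg38, and the counter, annotation and use of strand are not given in the sources used here. The deposited signal values were normalized counts per gene, made by the authors. Each value was a whole multiple of 1 step per library (100% within a tolerance of 0.05 reads), from which whole reads were recovered. From the table, 55 non-human features and 7 second copies of genes shared by the sex chromosomes were left out. Symbols were found for 98.5% of gene identifiers, and coordinates and promoters came from RefSeq, GRCh38.p14, which had a row for 72.7%.

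Log2 of the normalized count plus 1 was fitted with limma 3.58.1 in R 4.3.3 (group means, eBayes with a trend, two-sided, Benjamini-Hochberg over the 19068 genes tested). The contrast was the mean of both shRNA groups minus shGFP, so that each shRNA had equal weight. Standard errors are those of the fit. The replicates of a group differed by more than counting noise (chi-square over degrees of freedom 5.03 to 5.52), so all 6 libraries were kept. The fit was also run on simulated data with few changed genes and no background particular to shGFP. That setting differs from these libraries, so it does not give the error rate here. Alternatives were the pseudocount, the filter, 4 scalings, edgeR 4.0.16, DESeq2 1.42.0, no trend, a replicate block and leaving out each library. Other steps used Python 3.11.15, numpy 2.4.6, pandas 2.3.3 and matplotlib 3.10.9.

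Genes were named by rule. These were RMST, SOX2 and NKX2-1, the 10 largest changes each way by the smaller change of the shRNAs, the 6 largest shifts each way in normalized counts, up to 3 members each way of each list, and 3 genes each way with opposite calls. Some genes that the rule names are not reported here. Further list members, such as ATF4, INSM1, CHGA and the mitochondrial tRNAs, were named after their values were seen. The genes and lists were chosen with earlier results of these data known. The siRNA libraries served only to mark low genes, and the ChIP samples of the series were not analysed here.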

Additional observations from a re-analysis of the deposited data

Results flagged for a closer look

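For 6 genes the shRNAs passed the test in opposite directions against shGFP, and the difference itself, shRNA 1 minus shRNA 2 on the log2 scale, passed in limma. It was 2.622 for CEACAM6, 1.516 for ECEL1 and 1.335 for VDAC1, which were higher with shRNA 1 than in controls and lower with shRNA 2. It was -1.085 for MYO5B, -0.8164 for DSEL and -0.6934 for NWD2, which went the other way. There were 99 such genes, and these 6 were picked among the protein-coding ones, 3 each way, by the smaller change of the shRNAs. Their sizes are therefore a description.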

How the results depend on the processing

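Counts over measured genes stayed within 1.5 times of those reported under all alternatives run, except that 2933 genes were higher with shRNA 2 under equal totals, against 4442. Rises over both shRNAs ran from 3410 (equal totals) to 5085, and falls from 2631 (no variance trend) to 4872 (equal totals). The share of rises among calls was 58.8% as deposited, 41.2% with equal totals and 46.7% with the median ratio. edgeR's quasi-likelihood test on whole reads called 4788 rises and 3672 falls, and DESeq2 4351 and 3392. Leaving out 1 library gave 4086 to 4762 rises and 2681 to 3334 falls. A replicate block gave 4936 and 3452, but numbers shared between groups did not pair the libraries (correlations of deviations 0.047, -0.042 and -0.025). Of 457 genes named by rule and called, 57 lost the call under at least 1 alternative and none reversed. Sizes that moved were those of ANXA1 (4.83 with quantile normalization), CER1 (-4.66) and HMCN2 (-4.13) with a pseudocount of 5, and COL20A1 (-3.03 without shGFP replicate 1). Chosen after seeing the data, counts limited to genes with a mean of at least 10 in the siRNA libraries were 4915 and 3429. With 2 libraries per group, without one of them the lone library is assumed to vary like the others. Counts of 29 lists moved over 1.5 times without a variance trend, 18 without shGFP replicate 1 and 13 without shGFP replicate 2. The class of exon length was not run.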
